A study of Mus musculus with 4 samples.

Results

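Protein phosphatase 2A (PP2A) is assembled from a catalytic subunit, a scaffold subunit and an exchangeable regulatory subunit. The catalytic subunit removes phosphate from serine and threonine, the scaffold holds the complex together, and the regulatory subunit selects the substrates. The B55 class of regulatory subunits directs PP2A to proteins phosphorylated by cyclin-dependent kinases, and FAM122A is known as an inhibitor of PP2A that binds B55. The transcripts described here are the 8 genes of the catalytic (Ppp2ca, Ppp2cb), scaffold (Ppp2r1a, Ppp2r1b) and B55 subunits (Ppp2r2a, Ppp2r2b, Ppp2r2c, Ppp2r2d), chosen by name out of 51912 Ensembl genes in the data. All 8 were listed in every library.

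RNA was sequenced from cells sorted from mouse tissue as LT-HSCs, the long-term repopulating stem cells of blood. The animals were C57BL/6 mice aged 8 to 12 weeks, with 2 libraries from wild type (WT) and 2 from the Fam122a knockout (KO). Each library was a pool from 3 animals, and the sort gate was LSK CD34- FLk2- (LSK, lineage-negative cells with Sca1 and Kit). How Fam122a was deleted, and in which cells, is not given in the sources used here. The question of the series was which genes depend on Fam122a, and for these 8 genes it was whether loss of the PP2A inhibitor went with a different level of the phosphatase it inhibits.

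Values are FPKM, which counts fragments per length of gene and per size of library, at an implied depth of 2530000 to 6840000 fragments. WT replicate 2 was unlike the rest. The median over its 76 cytosolic ribosomal protein genes was 13.8 FPKM, against 349 to 507 FPKM elsewhere, and 53.9% of its summed FPKM lay at loci that carry no Ensembl identifier. KO was therefore compared with WT replicate 1, and WT replicate 2 is shown beside it. WT replicate 1 nevertheless lay between KO and WT replicate 2 in the share without an Ensembl identifier. That share was 9.14% for WT replicate 1, 1.74% for KO replicate 1 and 1.81% for KO replicate 2. The same order was seen for 3260 genes of long span relative to exonic length. Their median FPKM was 0.91 and 1.015 in the KO libraries, 7.2 in WT replicate 1 and 27.5 in WT replicate 2. How far this bears on the comparison was not tested. Fam122a itself was at 18.4 FPKM in WT replicate 1, at 7.46 FPKM in WT replicate 2, and listed at 0 in both KO libraries. Of 10 marker genes of the stem cell gate, 10 were above 0 in WT replicate 1 and in both KO libraries, and Ly6a and Procr were listed at 0 in WT replicate 2. Cd34, whose protein the gate excludes, was nevertheless at 179 FPKM in WT replicate 1 and at 87.7 and 62.1 FPKM in KO. Flt3, the gene of the other excluded marker, was at 26.2 FPKM in WT replicate 1 and on both sides of it in KO, at 36.2 and 24.7 FPKM. Neutrophil markers made up 17.4% of the Ensembl FPKM of WT replicate 1 and, in KO, 8.65% and 7.72%, erythroid markers 3.16% against 4.16% and 5.70%, and B cell markers 0.53% against 0.43% and 0.73%. Their part in the results below was not tested. In bulk samples, fewer cells of a type and less RNA per cell cannot be told apart.

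The paralogs of the scaffold and B55 classes resemble each other in sequence, so it matters whether a fragment can be assigned to one of them. The paired stretches below, from GENCODE M21 transcripts (GRCm38), show the longest run that the coding sequences of a scaffold pair and of a B55 pair have in common, in capitals, with up to 20 flanking bases in lower case. Position 1 is the A of the start codon.
Ppp2r1a, bases 1583 to 1645: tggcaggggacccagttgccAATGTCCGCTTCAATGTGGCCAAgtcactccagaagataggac
Ppp2r1b, bases 1619 to 1681: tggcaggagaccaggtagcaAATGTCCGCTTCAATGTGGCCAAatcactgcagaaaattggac
Ppp2r2a, bases 1 to 37: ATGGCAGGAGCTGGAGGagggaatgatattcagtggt
Ppp2r2d, bases 1 to 37: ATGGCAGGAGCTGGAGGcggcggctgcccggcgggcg

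The shared runs were 23 bases for the scaffold pair and 17 bases for Ppp2r2a and Ppp2r2d, the B55 pair at similar levels in these cells. The other 5 B55 pairs shared longer runs, of 20 bases or, for Ppp2r2b with Ppp2r2c, 26 bases. Over the whole coding sequence, identity was 69.0% between Ppp2r1a and Ppp2r1b, and 70.4% to 76.5% among the 6 pairs of B55 genes. No stretch of 100 bases occurred in transcripts of more than 1 gene of either class, so a fragment of that length identified its gene within the class. Stretches of 100 bases were shared with neighbours on the opposite strand, which this library type cannot separate because the kit does not mark strand. The largest case listed above 0 was Sik2, a kinase gene that overlaps 22.2% of the exonic bases of Ppp2r1b. Mapk1ip1 overlaps 3.30% of the exonic bases of Ppp2r2d, and a non-coding gene that overlaps 39.9% of those of Ppp2ca was listed at 0 in every library. As strand is not marked, that 0 does not show whether the non-coding gene was transcribed. A processed pseudogene, Gm19221, shared 57 such stretches with Ppp2r2a and was at 0.12 to 1.58 FPKM in the 4 libraries.

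**Figure D1:**
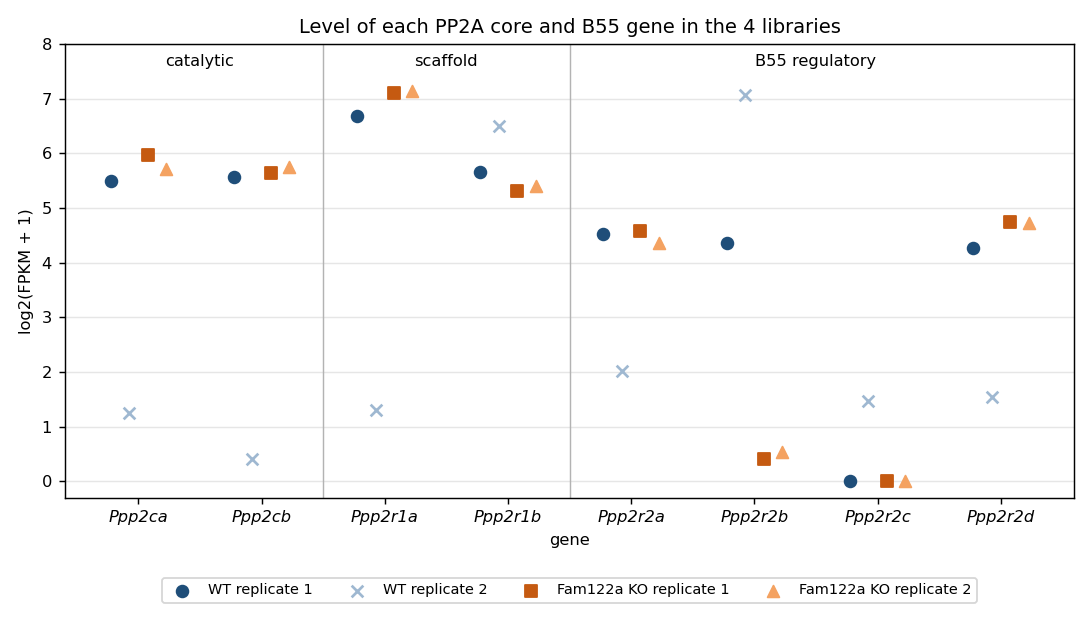
Level of each of the 8 genes in the 4 libraries, as log2(FPKM + 1), with catalytic, scaffold and B55 genes separated by vertical lines. WT replicate 1 and the KO libraries lie close together except at Ppp2r2b, where WT replicate 1 is at 4.36 and KO at 0.41 and 0.54, while WT replicate 2 lies apart at every gene.

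Ppp2ca and Ppp2cb encode the alpha and beta forms of the catalytic subunit. Ppp2ca (ENSMUSG00000020349, chromosome 11, 52098681 to 52127778, plus strand) was at 44.2 FPKM in WT replicate 1 and at 61.5 and 51.2 FPKM in KO. Ppp2cb (ENSMUSG00000009630, chromosome 8, 33599625 to 33619441, plus strand) was at 46.6 FPKM in WT replicate 1 and at 49.2 and 52.8 FPKM in KO. For both genes the KO libraries lay above WT replicate 1, and neither difference passed the test across all genes. The log2 difference of Ppp2ca, KO minus WT replicate 1, was 0.34 (95% interval -0.55 to 1.22, limma adjusted p = 0.319), so a change of about 2-fold in KO is within its interval. That of Ppp2cb was 0.13 (-0.28 to 0.53, limma adjusted p = 0.384). With median ratio scaling of the libraries, the difference of Ppp2cb turned to -0.03. In WT replicate 2 the genes were at 1.39 and 0.32 FPKM, the latter about 1.01 fragments.

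Ppp2r1a and Ppp2r1b encode the alpha and beta scaffold subunits. Ppp2r1a (ENSMUSG00000007564, chromosome 17, 20945311 to 20965916, plus strand) had the highest level of the 8 genes in WT replicate 1 and in both KO libraries, at 101 FPKM in WT replicate 1 and at 137 and 140.5 FPKM in KO. Both KO libraries were above WT replicate 1 by much more than they differed from each other, a ratio of KO mean to WT replicate 1 of 1.37. The log2 difference was 0.45 (95% interval 0.20 to 0.69), and it did not pass once adjusted over all genes (limma adjusted p = 0.0695). Ppp2r1b (ENSMUSG00000032058, chromosome 9, 50845301 to 50894229, plus strand) went the other way, at 49.8 FPKM in WT replicate 1 and at 38.8 and 41.1 FPKM in KO, and was not called (-0.31, interval -0.67 to 0.05, limma adjusted p = 0.145). Sik2, on the opposite strand over part of its exons, was at 61.0 FPKM in WT replicate 1 and at 15.96 and 30.4 FPKM in KO. Whether reads of Sik2 add to the value of Ppp2r1b was not tested. In WT replicate 2 the scaffold genes parted, with Ppp2r1a at 1.48 FPKM and Ppp2r1b at 89.9 FPKM, above every other library.

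Among the B55 genes, Ppp2r2a and Ppp2r2d were at similar levels in WT replicate 1 and in KO, Ppp2r2b was almost gone from KO, and Ppp2r2c was listed at 0. Ppp2r2a (B55 alpha, ENSMUSG00000022052, chromosome 14, 67014056 to 67072444, minus strand) was at 22.2 FPKM in WT replicate 1 and at 22.9 and 19.6 FPKM in KO. Its KO libraries lay on both sides of WT replicate 1, and the log2 difference was -0.06 (95% interval -0.85 to 0.72, limma adjusted p = 0.789). Scaling to equal summed Ensembl FPKM turned it to 0.16. Ppp2r2d (B55 delta, ENSMUSG00000041769, chromosome 7, 138846079 to 138883057, plus strand) was at 18.3 FPKM in WT replicate 1 and at 25.9 and 25.5 FPKM in KO. Both KO libraries were above WT replicate 1, with a KO mean of 25.7 FPKM ± 0.23 (SD, n = 2), and the log2 difference of 0.46 did not pass (interval 0.11 to 0.82, limma adjusted p = 0.0962).

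Ppp2r2b, the B55 beta gene known chiefly from the brain, was the only one of the 8 genes called. It lies on chromosome 18 from 42637432 to 43059471, minus strand (ENSMUSG00000024500). Ppp2r2b fell from 19.6 FPKM in WT replicate 1 to 0.33 and 0.45 FPKM in KO (log2 difference -3.89, SE 0.14, limma adjusted p = 0.0173). By estimate, 8.41 and 9.98 fragments stand behind the KO values and 310 behind the WT value. WT replicate 2 was higher again, at 134 FPKM. The gene passed the filter on low values only through WT replicate 1, so a difference was bound to be seen, and its small error rests on KO values near 0. With a pseudocount of 0.1 in place of 1 it was no longer called (limma adjusted p = 0.0552), nor with all 4 libraries (0.393). Under a filter of 1 FPKM in at least 2 libraries it was not tested.

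Lower values in KO than in WT replicate 1 were common among coding genes of long span. The span of Ppp2r2b is 106 times its exonic length. Of 339 coding genes tested whose span exceeded 64 times their exonic length, 39.2% were called lower in KO and none higher, with a median log2 difference of -2.70, and 85 lay at or below Ppp2r2b. In genes with a span of 2 to 4 times their exonic length, the median was 0.27 and 5.04% were called lower. The 5 neuronal marker genes Snap25, Syt1, Rbfox3, Map2 and Gap43 summed to 161 FPKM in WT replicate 1, to 647 FPKM in WT replicate 2, and to 2.33 and 1.09 FPKM in KO. Map2, Gap43, Syt1 and Rbfox3 themselves span 16.3, 60.5, 61.6 and 72.5 times their exonic length, and Snap25 10.2 times. In this sum, neuronal and long-span signal cannot be told apart. The part of long-span or neuronal signal in the WT value of Ppp2r2b was not tested. The other 6 genes tested have spans of 3.88 to 13.5 times their exonic length. Of these, Ppp2r1b, at 7.59 times, was highest in WT replicate 2, at 89.9 FPKM, while the other 5 were lowest there. Ppp2r3a, another PP2A regulatory gene, spans 11.8 times its exonic length and had a log2 difference of -3.95. Whether such signal is part of these values was not tested.

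**Figure D2:**
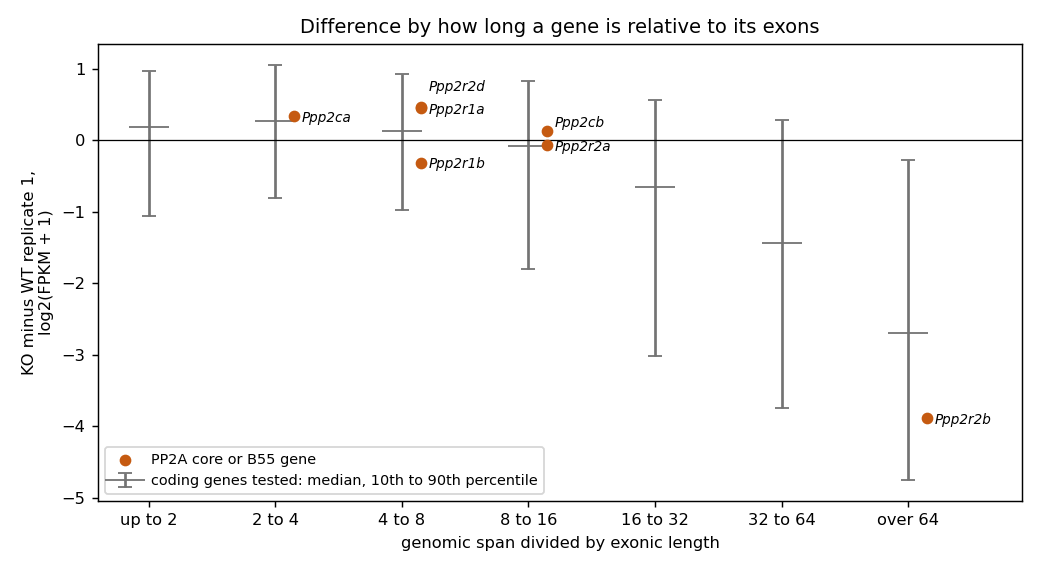
Log2 difference, KO minus WT replicate 1, of coding genes grouped by genomic span over exonic length (grey bars, median with 10th and 90th percentiles), with the PP2A core and B55 genes as orange points. The median falls to -2.70 in the class over 64, where Ppp2r2b at -3.89 lies inside the grey range, and the other genes lie within the ranges of their own classes.

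Ppp2r2c, the B55 gamma gene (ENSMUSG00000029120, chromosome 5, 36868513 to 36955078, plus strand), was listed at 0 in WT replicate 1 and in both KO libraries, where 3 fragments would give 0.17, 0.10 and 0.12 FPKM, a limit that covers counting error only. WT replicate 2 held 1.76 FPKM, about 18.8 fragments. The gene was below the filter and was not tested.

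The counts of members were read beside those of all genes tested. Only 7 of the 8 members were tested, as Ppp2r2c was below the filter. The genes tested include those that passed the filter only through WT replicate 1. Of 19201 genes tested, 1.90% were called higher and 20.1% lower, and of the 8 members 0 were called higher and 1 lower. Quantile normalization gave 488 genes higher and 2067 lower, in place of 365 and 3851, with the same member called. Both KO libraries lay above WT replicate 1 for 4 of the 8 members (Ppp2ca, Ppp2cb, Ppp2r1a and Ppp2r2d), against 36.0% of all genes tested. Both lay below it for Ppp2r1b and Ppp2r2b, against 51.6% of all genes. The median log2 difference was 0.13 over the 7 members tested and -0.19 over all genes. That shift depends on scaling, since summed Ensembl FPKM was 952543 in WT replicate 1, against 817438 and 801266 in KO, and the median of all genes became 0.02 with equal totals and -0.33 with median ratio scaling. Relative to the median of all genes as deposited, the differences were 0.53 for Ppp2ca, 0.31 for Ppp2cb, 0.63 for Ppp2r1a, 0.65 for Ppp2r2d, 0.12 for Ppp2r2a, -0.12 for Ppp2r1b and -3.70 for Ppp2r2b. The direction for Ppp2r2a and Ppp2cb relative to that median turned under quantile normalization, to -0.21 and -0.07. With the filter at 1 FPKM in 2 libraries, the median of all genes was 0.12. Relative to it Ppp2r2a was at -0.18, Ppp2r1b at -0.43, Ppp2cb at 0.01, Ppp2ca at 0.22, Ppp2r1a at 0.33 and Ppp2r2d at 0.35. The span-class medians of coding genes were 0.27 for Ppp2ca, 0.14 for Ppp2r1a, Ppp2r1b and Ppp2r2d, and -0.07 for Ppp2cb and Ppp2r2a.

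Shares within a subunit class do not depend on how a library was scaled. Ppp2ca made up 48.7% of catalytic FPKM in WT replicate 1 and 55.6% and 49.3% in KO, so the alpha and beta genes were about equal in each, and the KO libraries differed from each other by more than KO replicate 2 did from WT. Ppp2r1a made up 67.1% of scaffold FPKM in WT replicate 1, against 77.9% and 77.4% in KO. The KO mean was higher by 10.6 percentage points, against an SD of 0.37 between KO libraries. That SD does not cover the spread between WT libraries. The difference in share was not tested, and in WT replicate 2 the share was 1.62%. Whether reads of Sik2 add to the Ppp2r1b part of the scaffold FPKM was not tested either. Among B55 genes, Ppp2r2b held 32.6% in WT replicate 1 and 95.2% in WT replicate 2, but only 0.67% and 0.99% in the KO libraries. Leaving Ppp2r2b out, Ppp2r2d held 45.3% in WT replicate 1 and 53.1% and 56.6% in KO. Its order with Ppp2r2a was thus reversed, as Ppp2r2a was above Ppp2r2d in WT replicate 1 and below it in both KO libraries, a change of order that was not tested.

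**Figure D3:**
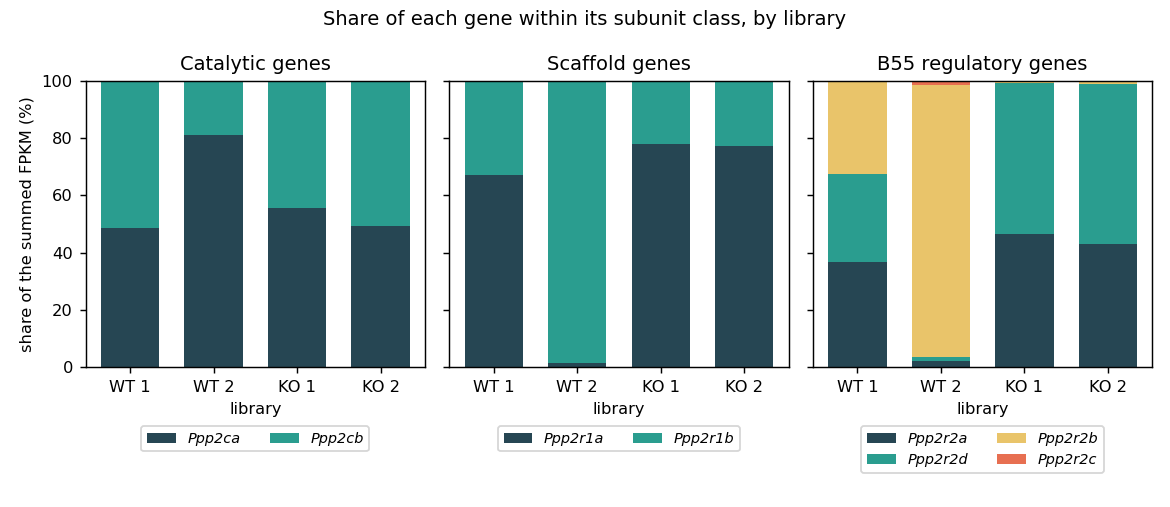
Share of each gene in the summed FPKM of its subunit class, one stacked bar per library. Ppp2r1a takes 67.1% of the scaffold class in WT replicate 1 and 77.9% and 77.4% in KO, Ppp2r2b 32.6% of the B55 class in WT replicate 1 and under 1% in KO, and WT replicate 2 differs from the other libraries in all classes.

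In WT replicate 1 and in both KO libraries, scaffold transcripts exceeded catalytic transcripts and B55 transcripts were fewest. The ratio of scaffold to catalytic FPKM was 1.67 in WT replicate 1, between the KO values of 1.59 and 1.75. The ratio of B55 to catalytic FPKM, without Ppp2r2b, was 0.45 in WT replicate 1 and 0.44 and 0.43 in KO. With Ppp2r2b it was 0.66 in WT replicate 1 and 0.44 in both KO libraries. WT replicate 2 had another order, with the B55 genes at 140.6 FPKM in sum, the scaffold genes at 91.4 FPKM and the catalytic genes at 1.71 FPKM. Its ratio to catalytic FPKM was 53.4 for scaffold and 82.2 for B55, or 3.91 for B55 without Ppp2r2b.

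The order of levels in KO was Ppp2r1a, Ppp2ca, Ppp2cb, Ppp2r1b, Ppp2r2d, Ppp2r2a, Ppp2r2b and Ppp2r2c. Ppp2ca (56.4 FPKM ± 7.28, SD, n = 2) and Ppp2cb (50.99 FPKM ± 2.55) did not differ beyond the spread of the KO pair. Ppp2r2d was above Ppp2r2a (21.2 FPKM ± 2.31) in both KO libraries. In WT replicate 1, Ppp2r1b came second and Ppp2r2a led the B55 genes. Ppp2r1a was above 95.4% of 21793 coding genes in WT replicate 1 and above 96.4% and 96.5% in KO, and Ppp2r2a above 77.3%, 76.7% and 73.9%. The coding genes whose log2 values lay nearest to those of Ppp2ca over the 4 libraries were Wdr77, H2afj and Mtfr1l (root mean square differences 0.088, 0.093 and 0.096). Those nearest to Ppp2r2a were Strada, Timm22 and Zfp386 (0.078, 0.11 and 0.13).

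Of 32 other PP2A genes and related phosphatases, Ppp2r5d rose in KO, Fam122a and Fam122c fell, and 29 were not called. Over all genes tested, 1.90% were called higher and 20.1% lower, so the 1 gene called higher and the 2 called lower among the 32 do not set the list apart. Ppp2r5d encodes a B56 regulatory subunit, the class that competes with B55 for the core enzyme. It was at 22.3 FPKM in WT replicate 1 and at 45.4 and 46.3 FPKM in KO, about 2.05-fold higher (log2 difference 1.004, SE 0.056, limma adjusted p = 0.0323). The call of Ppp2r5d was lost with the filter at 1 FPKM in 2 libraries (limma adjusted p = 0.0821), with quantile normalization (0.0501) and with all 4 libraries (0.415). Of the other B56 genes, Ppp2r5b was at 3.75 FPKM in WT replicate 1 and at 13.6 and 19.7 FPKM in KO but was not called. The log2 difference of Fam122a was -4.28 (limma adjusted p = 0.00432) and that of Fam122c -3.18 (0.0319), with Fam122c at 8.92 FPKM in WT replicate 1 and at 0.20 and 0 FPKM in KO. Fam122c spans 58.1 times its exonic length. Both also passed the filter only through WT replicate 1. Fam122c was no longer called with a pseudocount of 0.1 (limma adjusted p = 0.135), with quantile normalization (0.0571) or with all 4 libraries (0.393), and Fam122a not with all 4 libraries (0.393). Fam122b was at 5.63 FPKM in WT replicate 1 and at 4.67 and 9.16 FPKM in KO.

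The kinase Mastl and its substrates Ensa and Arpp19 form the switch that inhibits PP2A-B55 when cells enter mitosis, and none of them was called. Ensa was at 48.0 FPKM in WT replicate 1 and at 64.1 and 68.6 FPKM in KO. Arpp19 was at 106 FPKM in WT replicate 1 and at 93.5 and 79.8 FPKM in KO. Mastl was at 5.46 FPKM in WT replicate 1 and at 3.25 and 5.70 FPKM in KO. Ensa thus lay above and Arpp19 below WT replicate 1 in both KO libraries, and Mastl on both sides. Ptpa, whose protein is an activator of PP2A, was at 63.95 FPKM in WT replicate 1 and at 117 and 135 FPKM in KO. Its log2 difference was 0.96, and it was not called. Ppp2r3a, a regulatory subunit of another class, was at 76.5 FPKM in WT replicate 1, at 42.2 FPKM in WT replicate 2, and at 2.59 and 6.04 FPKM in KO (limma adjusted p = 0.104). Ppp6c, the catalytic subunit of a related phosphatase, was at 68.2 FPKM in WT replicate 1 and at 53.6 and 44.2 FPKM in KO (limma adjusted p = 0.238). The median log2 difference of the 32 genes was 0.20, with 20 above 0. It was 0.041 with 18 above 0 under median ratio scaling, 0.43 with 24 above 0 under equal totals, and 1.53 with 23 above 0 with all 4 libraries.

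**Figure D4:**
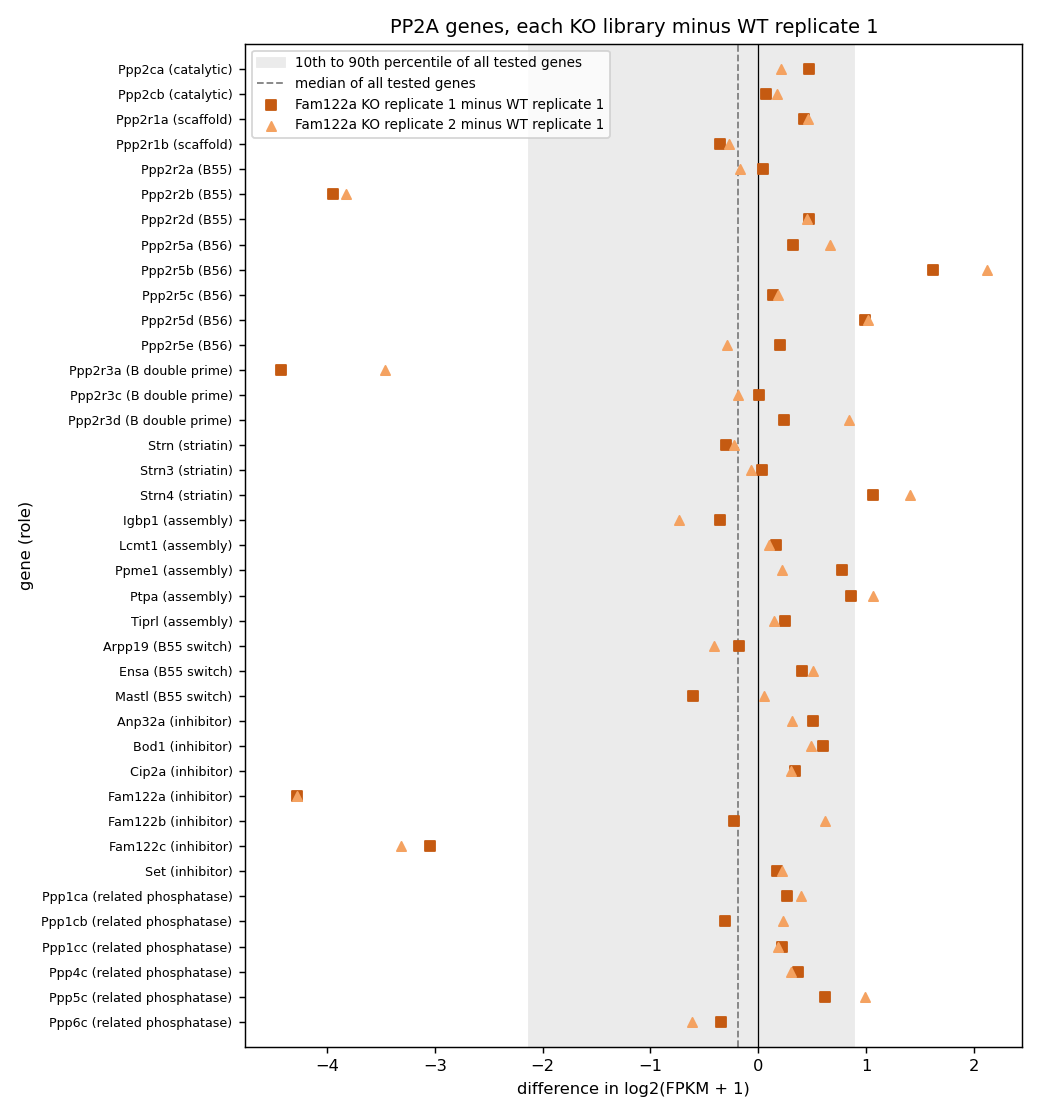
Difference in log2(FPKM + 1) of each KO library from WT replicate 1 for the 7 members tested and 32 other PP2A genes, with the 10th to 90th percentile of all tested genes in grey (-2.13 to 0.89) and their median as a dashed line (-0.19). Ppp2r2b lies below the grey range in both KO libraries, and the other 6 members lie inside it.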

How the data were processed

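The deposited files give 1 value for each of 87703 features in each library and carry no header. The authors' unit is not stated, and FPKM was inferred from the form of the values, which are not whole and whose totals differ between libraries. Of tools, HISAT2 2.1.0, STAR 2.7.1a and bcl2fastq are listed in the submitters' processing notes, and of builds mm10 and GRCm38.p5, with no role for any. The 35791 MSTRG loci stayed out. Coordinates, exonic lengths and transcripts came from GENCODE M21 (GRCm38), which holds 51633 of the Ensembl genes. Depth was estimated from the steps of low values in single-exon genes, where 85.3% to 91.2% lay within 0.1 of a whole number, and fragment estimates use the summed exons of a gene.

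KO replicates 1 and 2 were compared with WT replicate 1 with limma 3.58.1 (R 4.3.3, intensity trend) on log2(FPKM + 1), which understates fold changes of low genes. Genes needed 1 FPKM in WT replicate 1 or as the KO mean. The threshold was the same for both groups, but it did not treat both directions alike. A gene could pass on WT replicate 1 alone with both KO values near 0, and its spread then came from those values. With 1 FPKM needed in 2 libraries, 13848 genes stayed in the test, in place of 19201. Benjamini-Hochberg adjustment ran over all 19201 genes, and an adjusted p under 0.05 was called. The spread comes from the KO pair alone, and the WT library is assumed to vary like it. The labels call the libraries of a group biological replicates. The members, the gene lists and the rule for named genes were chosen with earlier results of these data known. The rule took all 8 members, Fam122a to Fam122c, the called genes of the other PP2A list with the next 2 per direction by p, Mastl, Ensa and Arpp19, and the 3 coding genes nearest to Ppp2ca and to Ppp2r2a. Ppp2r5b, Sik2, Mapk1ip1 and Gm19221 were added after their values were seen. Coding sequences of the scaffold and B55 genes were aligned with Biopython 1.88, and the sequence comparison of the catalytic genes is not reported here. Alternatives covered filters, pseudocounts, scaling, the trend, the replicate block and each library left out.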

Additional observations from a re-analysis of the deposited data

Results flagged for a closer look

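WT replicate 2, which the comparison does not use, held more signal than any other library at 3 of the 8 genes. Ppp2r1b was at 89.9 FPKM there, against 38.8 to 49.8 FPKM in the other libraries. Ppp2r2b was at 134 FPKM, against 19.6 FPKM in WT replicate 1. Ppp2r2c was at 1.76 FPKM and listed at 0 elsewhere. The other 5 genes were lowest in WT replicate 2, at 0.32 to 3.03 FPKM.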

How the results depend on the processing

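With all 4 libraries, limma called 0 of 23454 genes in either direction, 0 members and 0 other PP2A genes, both without and with a replicate block (replicate numbers as a block; unadjusted p under 0.05 in 125 higher and 2594 lower genes without it, 193 and 1983 with it). The median of the members was 1.83 in both. The labels give no shared animal or day behind a number, and deviations of same-numbered libraries correlated at 0.055. Under the block the adjusted p was 0.136 for Ppp2r2b, 0.428 for Fam122a, 0.436 for Fam122c and 0.553 for Ppp2r5d. The counts of genes called higher and lower, 365 and 3851 as reported, were 25 and 196 with the filter at 1 FPKM in 2 libraries, where 0 members and 0 other PP2A genes were called and the median of the members was 0.23. They were 761 and 9265 with no filter. The higher count was 243 with a pseudocount of 0.1, where 0 members and 1 other PP2A gene were lower, 622 with equal totals, 239 with median ratio scaling and 624 without the trend. Quantile normalization gave 2067 lower genes, 0 higher and 1 lower other PP2A gene. The median of the members was 0.36 with equal totals, -0.031 with median ratio scaling and 0.032 with quantile normalization. The cause of these moves was not tested, beyond the number of genes each filter keeps.

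With WT replicate 2 in place of WT replicate 1, limma called 7066 higher and 12041 lower genes, 5 members higher and 3 lower, and 18 other PP2A genes higher and 5 lower. In the ranges with 1 library left out, leaving out WT replicate 1 means comparing KO with WT replicate 2. Leaving out a KO library keeps WT replicate 1 as the reference. The median of the members was 2.83 without WT replicate 1, 0.18 without KO replicate 1 and 0.076 without KO replicate 2. Across the same 3 settings, the differences below are given as ranges. The KO minus WT difference in share ranged from -28.9 to 6.91 points for Ppp2ca, from 10.3 to 76.02 for Ppp2r1a, from -94.4 to -31.6 for Ppp2r2b and from 7.80 to 26.4 for Ppp2r2d without Ppp2r2b. That in the ratio to catalytic FPKM ranged from -51.8 to 0.079 for scaffold and from -3.48 to -0.0061 for B55 without Ppp2r2b. With the mean of both WT libraries these 6 differences were -12.6, 43.3, -63.1, 17.99, -25.9 and -1.74. Directions that turned among the named genes were Ppp2r2a (1.20 with all 4 libraries, with or without the block, 0.16 with equal totals, and -0.17 to 2.46 with 1 library left out), Ppp2cb (-0.031 with median ratio scaling), Ppp6c (2.13 with all 4 libraries, and -0.61 to 4.73 with 1 library left out), Arpp19 (1.504 with all 4 libraries, and -0.41 to 3.30 with 1 library left out), Mastl (0.33 with quantile normalization, and -1.88 to 0.053 with 1 library left out) and Fam122b (-0.23 to 2.92 with 1 library left out). Over the scaling, filter, pseudocount and trend settings, the lowest adjusted p was 0.0540 for Ppp2r1a and 0.0521 for Ppp2r2d. The calls and share differences given in the report, other than those with all 4 libraries, rest on 1 WT library, and depth limits what can be said of Ppp2r2b in KO and of Ppp2r2c.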
